A study of Mus musculus with 6 samples.

Results

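Genes of the amino acid stress response were examined in mouse embryonic stem (ES) cells carrying a shRNA vector against Ep400 (shEp400) and in cells carrying a control vector. The set held 36 genes: 18 tRNA synthetases, 8 enzymes of amino acid synthesis, 7 stress factors and 3 amino acid transporters. Members were found by gene symbol on an Illumina bead array, on which 34 of the 36 had a probe, among 19057 named genes. Dars and Pycr1 were not analysed here. Of the 34 genes, 31 were above background on enough arrays to be tested, and Hars, Yars and Psph were not. All 31 had a detected probe on at least 1 array of each group.

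The 6 samples were total RNA of cells labelled only as mouse ES cells, 3 with the shEp400 vector and 3 with the control vector, both named pHYPER vectors in the labels. Cells of both groups grew on inactivated embryonic fibroblasts (feeder cells) in 15% serum with the cytokine LIF. They were electroporated, and puromycin selection began 24 h later and lasted 48 h. The labels do not say what the control vector carried, which strain was used or how many shRNA sequences there were. They also do not say whether cultures were separate, so the p-values cover the spread between these samples alone, and that spread may be technical.

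Between 15441 and 17337 probes were detected per array. The slide was the same for all arrays, with shEp400 and control samples at different positions, and an effect of position cannot be told apart from one of group. Ep400, the ATPase of the Tip60-p400 chromatin complex, had a normalized log2 signal of 9.04 ± 0.142 in shEp400 cells and 9.62 ± 0.083 in control cells (SD, n = 3 each). Its log2 change was -0.58 (SE 0.16, limma adjusted p = 0.0159), from the 1 of its 3 probes that was above background. Without control replicate 1 the change was -0.53 and did not pass (limma adjusted p = 0.0611), and with cyclic loess normalization it was -0.42 and did not pass (limma adjusted p = 0.0631). Of 9 ES cell markers tested, 0 rose and 5 fell, and all 9 were detected. Of 25 feeder fibroblast markers tested, of 35 listed, 22 rose and 0 fell. Over all genes tested, 20.6% rose and 23.1% fell. The feeder markers are the ones meant next. The summed normalized signal of the feeder markers was between 40316 and 62057 on the shEp400 arrays, against 10063 to 11170 on the control arrays. Col3a1, Col5a2, Postn, Fap, Cnn1 and S100a4 were below the detection filter. In such bulk RNA, more or fewer cells of a type and more or less RNA per cell cannot be told apart. This holds for the member genes too. Values given for shEp400 or control cells are those of the whole sample, which may include RNA of feeder cells.

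When amino acids are scarce or proteins misfold, kinases phosphorylate the translation factor eIF2, which lowers protein synthesis overall and raises translation of the transcription factor Atf4. Atf4 pairs with C/EBP family proteins on composite DNA elements and raises genes for amino acid uptake, amino acid synthesis and tRNA charging, and stress factors such as Ddit3 (CHOP), Trib3 and Chac1. The tRNA synthetases join each amino acid to its tRNA, and many cytosolic ones are known targets of Atf4. An array reads RNA, so it does not measure the translation step.

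The 250 bases before the start site are shown for 4 members, because they hold the core of that composite element and because 2 of the 4 rose and 2 did not pass the test. Sequences are from RefSeq (assembly GRCm38.p6), written along the gene's strand, with capitals marking TGATGNAA or its reverse complement TTNCATCA. The cystine transporter gene Slc7a11 and the transcription factor gene Atf3 are followed by the asparagine synthetase gene Asns and the glutathione-degrading enzyme gene Chac1.
Slc7a11 (chr3:50443614-50443863, minus strand): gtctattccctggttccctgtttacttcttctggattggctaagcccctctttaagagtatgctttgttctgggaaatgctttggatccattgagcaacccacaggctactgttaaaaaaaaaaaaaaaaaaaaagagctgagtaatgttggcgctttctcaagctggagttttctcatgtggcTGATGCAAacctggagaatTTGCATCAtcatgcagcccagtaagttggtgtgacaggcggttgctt
Atf3 (chr1:191183334-191183583, minus strand): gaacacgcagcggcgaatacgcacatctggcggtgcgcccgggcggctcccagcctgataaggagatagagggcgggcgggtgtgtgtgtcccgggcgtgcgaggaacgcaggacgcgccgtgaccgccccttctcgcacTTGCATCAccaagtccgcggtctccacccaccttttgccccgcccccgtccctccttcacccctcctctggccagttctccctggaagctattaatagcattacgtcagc
Asns (chr6:7693210-7693459, minus strand): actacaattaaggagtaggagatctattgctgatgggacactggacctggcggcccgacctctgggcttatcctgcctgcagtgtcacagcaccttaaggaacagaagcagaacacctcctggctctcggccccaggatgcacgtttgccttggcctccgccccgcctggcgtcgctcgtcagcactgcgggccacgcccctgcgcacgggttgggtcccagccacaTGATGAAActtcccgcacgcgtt
Chac1 (chr2:119350992-119351241, plus strand): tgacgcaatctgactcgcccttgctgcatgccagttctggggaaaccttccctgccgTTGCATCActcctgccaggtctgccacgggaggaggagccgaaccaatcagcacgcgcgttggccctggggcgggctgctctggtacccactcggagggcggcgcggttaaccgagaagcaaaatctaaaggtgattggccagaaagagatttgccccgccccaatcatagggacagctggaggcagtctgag

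Counted from the start site, the first base of the match lay at -66 and -47 in Slc7a11, at -110 in Atf3, at -23 in Asns and at -193 in Chac1. A window from 250 bases before to 50 after the start site was given for 28 of the 36 members, and 12 of the 28 held TGATGNAA on either strand. The share over all 27025 genes with a window was 4.51%. The narrower TGATGCAA, which is contained in it, was in 9 of the 28 and in 1.03% of all windows. The members were gathered as genes tied to Atf4, so these shares describe the set and were not tested. Among tested members with a window, TGATGNAA was in 3 of the 5 that rose (Atf3, Vldlr and Slc7a11, not Atf4 or Ddit3). It was in 0 of the 6 that fell, and in 7 of the 13 that did not pass the test. Of the 4 genes printed, Slc7a11 and Atf3 rose, whereas Asns and Chac1 did not pass the test. A match is not evidence of binding, and a window without one says only that these letters are not in it.

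Of the 31 tested members, 5 rose, 10 fell and 16 did not pass the test (limma with Benjamini-Hochberg adjustment over 9736 genes, threshold 0.05). Over all genes tested, 20.6% rose and 23.1% fell, or 43.7% in both directions, and the median log2 change was -0.06. The direction differed by role: 4 of the 7 stress factors rose and 0 fell, whereas 0 of the 15 synthetases rose and 6 fell, and 0 of the 6 synthesis enzymes rose and 3 fell. The median log2 change was 0.75 for the stress factors, -0.31 for the synthetases and -0.42 for the synthesis enzymes. The stress factor median was 0.41 without shEp400 replicate 3 and 1.25 with the mean of detected probes. The synthetase median was -0.47 with the mean of detected probes and -0.61 with 75th percentile scaling, and the synthesis median -0.26 with cyclic loess. The 6 shEp400 and control arrays did not overlap for 21 members, 6 of them higher and 15 lower in shEp400 cells. Over all genes the groups did not overlap for 55.5%, with 25.1% higher and 30.3% lower in shEp400 cells. Log2 values here are normalized signals, each from the brightest detected probe of a gene, and changes are shEp400 minus control.

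**Figure D1:**
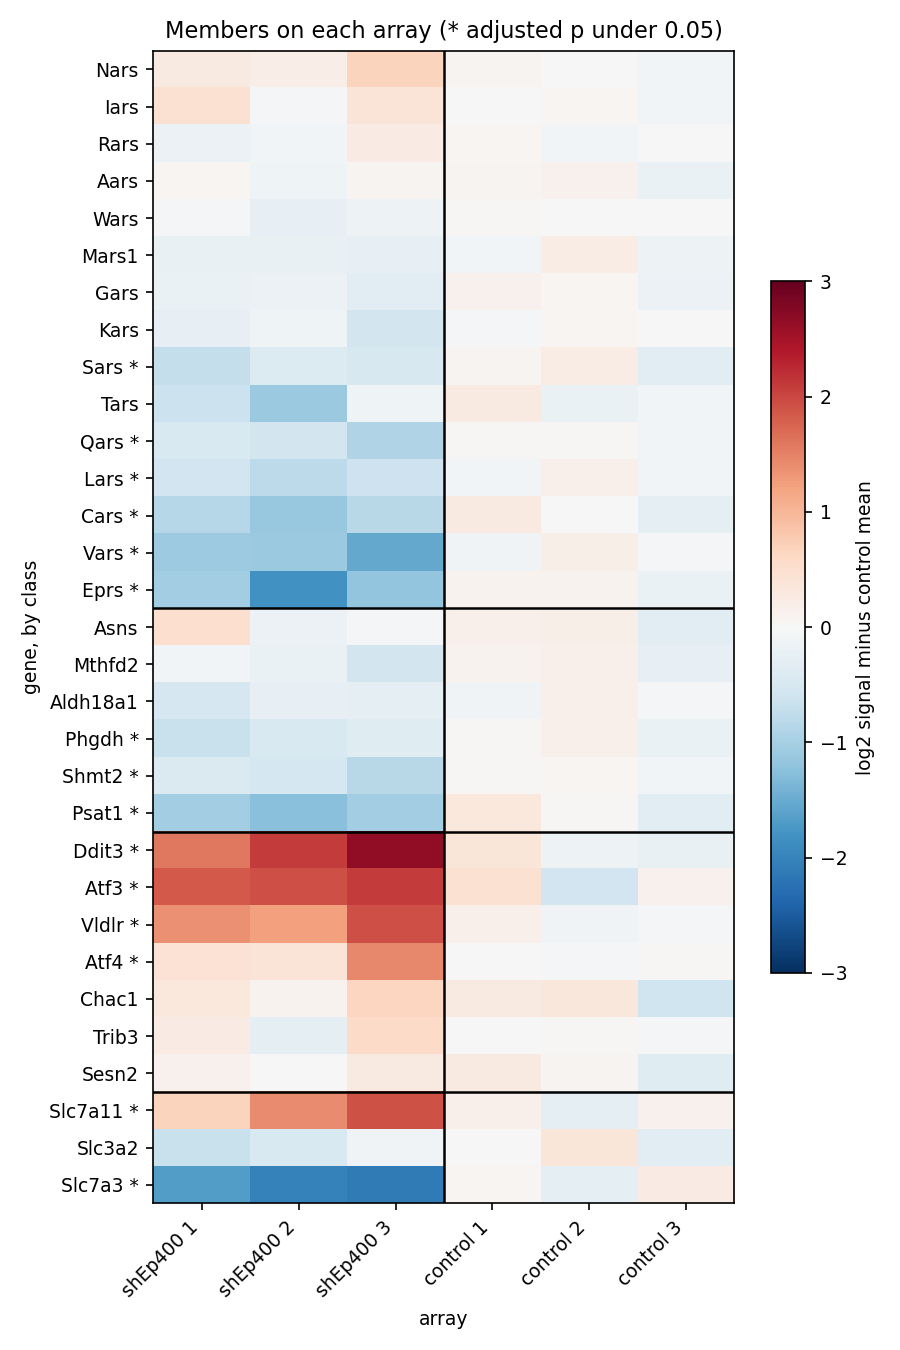
Each row is a tested member and each column an array, coloured by its normalized log2 signal minus the control mean of that gene (a difference, not a level). Ddit3, Atf3 and Vldlr were above every control array on all 3 shEp400 arrays, and Slc7a3, Eprs, Vars and Psat1 below.

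Ddit3, the stress-induced transcription factor also called CHOP, had log2 signals of 11.21, 11.71 and 12.27 on the shEp400 arrays, against 9.99, 9.47 and 9.40 on the control arrays. Every shEp400 array lay above every control array, by more than the spread within either group. It was 4.32-fold higher (log2 change 2.11, SE 0.27, limma adjusted p = 0.00031), and its second detected probe gave 2.26.

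Atf3, a transcription factor induced by many stresses, had log2 signals of 6.95, 7.04 and 7.20 in shEp400 cells and 5.55, 4.53 and 5.23 in control cells. The shEp400 values were close together and all above the control values, 1 of which was not above background. The fold was 3.89 (log2 change 1.96, SE 0.25, limma adjusted p = 0.00027). With no background correction the log2 change was 0.84, and with normexp without negative controls 1.11, and Atf3 passed the test in both.

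Vldlr, a lipoprotein receptor whose gene is a target of Atf4, had log2 signals of 7.17, 7.03 and 7.73 in shEp400 cells and 5.95, 5.69 and 5.77 in control cells. The groups were separate, and the gene was 2.84-fold higher (log2 change 1.51, SE 0.21, limma adjusted p = 0.000452). Its 3 detected probes all rose, by 1.47 to 1.53 on the log2 scale. With no background correction the log2 change was 0.72.

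Atf4 itself had log2 signals of 10.54, 10.48 and 11.56 in shEp400 cells and 10.11, 10.07 and 10.15 in control cells. All shEp400 values were above the control values, and replicate 3 stood well above the other shEp400 arrays. The gene was 1.69-fold higher (log2 change 0.75, SE 0.27, limma adjusted p = 0.0433), with a 95% interval from 0.16 to 1.35. The call was lost in 6 of 16 alternative settings. Without shEp400 replicate 3 the change was 0.41 and did not pass (limma adjusted p = 0.0664), and without control replicate 1, 2 or 3 the adjusted p was 0.0938, 0.101 and 0.0882. With 75th percentile scaling it was 0.0988, and with no filter on dim probes 0.0962. A second Atf4 probe rose more, by 1.75 on the log2 scale (limma adjusted p = 0.00171 over all detected probes).

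Of the remaining stress factors, Chac1 had log2 signals of 8.60, 8.39 and 8.93 in shEp400 cells and 8.54, 8.61 and 7.68 in control cells. Trib3, a pseudokinase induced through Atf4 and Ddit3, had 8.62, 8.08 and 8.95 in shEp400 cells and 8.38, 8.42 and 8.32 in control cells. For both genes the groups overlapped. The log2 change was 0.36 for Chac1 (95% interval -0.22 to 0.95) and 0.18 for Trib3 (-0.31 to 0.67). For Sesn2, a sestrin that restrains mTORC1 signalling, it was 0.14 (-0.31 to 0.58). These 3 did not pass the test, with limma adjusted p of 0.288, 0.54 and 0.608. The Atf4 interval, 0.16 to 1.35, overlaps each of these 3 intervals. Whether these genes followed Atf4 was not tested. Of the 3 detected Trib3 probes, 1 fell by 0.49 on the log2 scale (limma adjusted p = 0.0364).

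**Figure D2:**
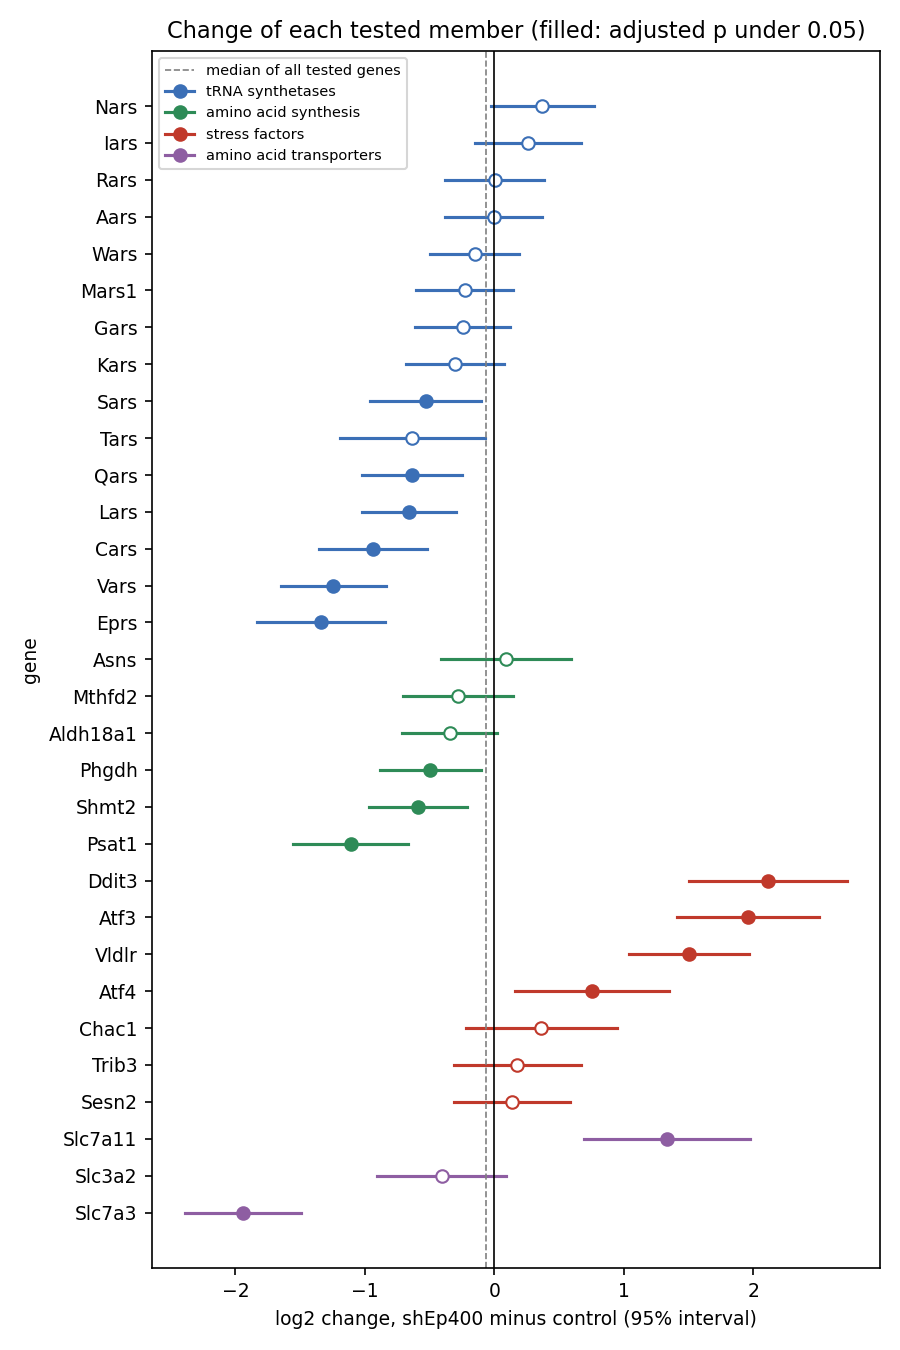
Log2 change of each tested member with its 95% interval, grouped by role, filled where the limma adjusted p was under 0.05. Stress factors lie at or above 0, and most synthetases and synthesis enzymes at or below it.

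Of the 3 amino acid transporters, 1 fell, 1 rose and 1 did not pass the test. Slc7a3, a carrier of arginine and lysine, had log2 signals of 9.51, 9.15 and 9.05 in shEp400 cells and 11.23, 10.88 and 11.43 in control cells. All shEp400 arrays lay far below all control arrays, and the gene was 3.84-fold lower (log2 change -1.94, SE 0.20, limma adjusted p = 0.000113).

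Slc7a11, the cystine-glutamate exchanger whose promoter is printed above, had log2 signals of 5.77, 6.50 and 7.01 in shEp400 cells and 5.25, 4.80 and 5.23 in control cells. The groups were separate, near the low end of the signal range, and 1 control array was not above background. Slc7a11 was 2.52-fold higher (log2 change 1.33, SE 0.29, limma adjusted p = 0.00453). With no background correction the change was 0.52, and it could not be tested where detection on all 6 arrays was required. Only 1 of its 5 probes was detected on enough arrays.

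Slc3a2, the heavy chain that carries Slc7a11 to the membrane, was detected on 1 shEp400 array and 2 control arrays. Its log2 change was -0.41 (95% interval -0.90 to 0.09, limma adjusted p = 0.165).

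Among the synthetases, 6 of 15 fell, against 23.1% of all genes. Without control replicate 1, 3 of the synthetases fell. The groups did not overlap for 11 of the 15, with 10 lower and 1 higher in shEp400 cells. The share of all genes without overlap was 55.5%, with 30.3% lower and 25.1% higher. Eprs, which charges glutamate and proline tRNAs, had log2 signals of 7.73, 6.97 and 7.59 in shEp400 cells and 8.88, 8.87 and 8.56 in control cells. The groups were separate and the gene was 2.53-fold lower (log2 change -1.34, SE 0.22, limma adjusted p = 0.00115). The other 2 detected Eprs probes changed by -0.23 and -0.30 and did not pass, and the mean of the 3 probes gave -0.62 (limma adjusted p = 0.0132).

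Vars, the valine enzyme, had log2 signals of 9.61, 9.60 and 9.18 in shEp400 cells and 10.61, 10.88 and 10.64 in control cells. No array of one group reached the other, and the fall was 2.37-fold (log2 change -1.24, SE 0.18, limma adjusted p = 0.000607). All 3 detected Vars probes fell, by 0.97 to 1.49 on the log2 scale.

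Lars, the leucine enzyme, had log2 signals of 11.84, 11.62 and 11.79 in shEp400 cells and 12.34, 12.57 and 12.33 in control cells. Qars, the glutamine enzyme, had 11.30, 11.22 and 10.87 in shEp400 cells and 11.80, 11.80 and 11.69 in control cells. Both had separate groups, and they fell 1.58-fold and 1.56-fold (log2 changes -0.66 and -0.64, SE 0.16 and 0.17, limma adjusted p = 0.0092 and 0.0145). Both detected Lars probes fell, as did 2 of the 3 detected Qars probes. Without control replicate 1 Qars did not pass (limma adjusted p = 0.0502).

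Cars, the cysteine enzyme, had log2 signals of 5.18, 4.91 and 5.22 in shEp400 cells, 2 of them above background, and 6.30, 6.05 and 5.77 in control cells. The groups were separate (log2 change -0.94, SE 0.19, limma adjusted p = 0.00319). Without shEp400 replicate 2 or control replicate 1 another Cars probe became the brightest, and the change was then -0.21 (limma adjusted p = 0.512) and -0.48 (limma adjusted p = 0.278). With no background correction it was -0.32.

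Sars, the serine enzyme, had log2 signals of 8.73, 9.02 and 8.97 in shEp400 cells and 9.53, 9.67 and 9.12 in control cells. The groups lay close to each other without overlap, and the change was -0.53 (SE 0.19, limma adjusted p = 0.0459). The Sars call was lost in 9 of 16 alternative settings, among them without shEp400 replicate 1, 2 or 3 or control replicate 1 or 2 (limma adjusted p of 0.059 to 0.162), and the mean of its detected probes changed by -0.26 (limma adjusted p = 0.359).

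The remaining 9 synthetases did not pass the test. Tars, the threonine enzyme, had the largest change among them, -0.63 (95% interval -1.19 to -0.07, limma adjusted p = 0.0649), with overlapping groups. Without shEp400 replicate 3 it was -0.86 and passed (limma adjusted p = 0.0117). Kars, Gars, Mars1 and Wars, the lysine, glycine, methionine and tryptophan enzymes, changed by -0.31, -0.24, -0.23 and -0.15, and in each the shEp400 arrays were below the control arrays. For Aars, the alanine enzyme, and Rars, the arginine enzyme, the intervals ran from -0.38 to 0.37 and from -0.38 to 0.39. Iars, the isoleucine enzyme, changed by 0.26 (limma adjusted p = 0.274). Nars, the asparagine enzyme, had its shEp400 arrays above the control arrays but did not pass (log2 change 0.37, limma adjusted p = 0.117).

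Several synthetases read differently by probe. The 3 dimmer detected probes of Wars fell by 0.83, 0.69 and 0.51 on the log2 scale (limma adjusted p = 0.00837, 0.0429 and 0.0437 over all detected probes), although its brightest probe did not pass. The mean of the 4 Wars probes fell by 0.55 (limma adjusted p = 0.0198). The second Kars probe fell by 0.65 (limma adjusted p = 0.0122). Of 31 detected synthetase probes, 13 fell and 0 rose, whereas of 14 detected stress factor probes 8 rose and 1 fell. Over all 14238 detected named probes, 2675 rose and 3212 fell. The share called in either direction was 41.3% over all probes, 41.9% for the synthetase probes and 64.3% for the stress factor probes. Probes of 1 gene are repeated readings of it, so these counts are not counts of genes. Of 19 members with at least 2 detected probes, 0 had probes called in opposite directions. Which transcripts each probe reads was not examined.

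**Figure D3:**
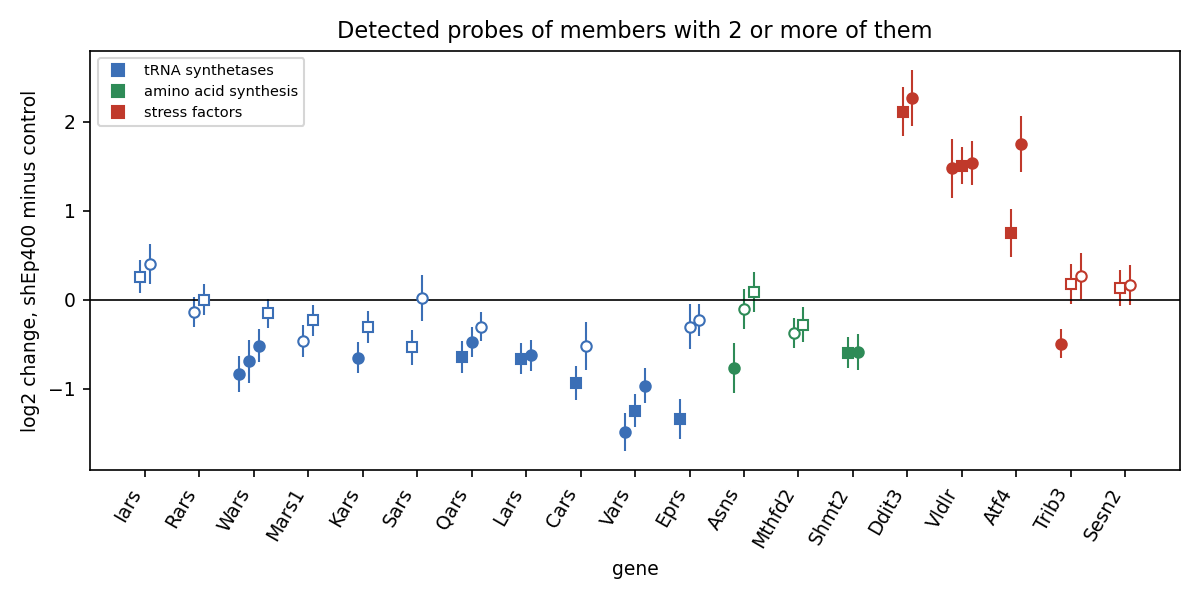
Log2 change (shEp400 minus control, error bars 1 SE) of each detected probe for members with at least 2, filled where the limma adjusted p over all detected probes was under 0.05, with a square for the brightest probe. The probes of Lars, Shmt2, Vldlr and Ddit3 are among those that lie together, and the probes of Eprs, Wars, Trib3, Asns and Atf4 lie apart.

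Psat1, the aminotransferase of serine synthesis, had log2 signals of 10.18, 9.97 and 10.16 in shEp400 cells and 11.53, 11.24 and 10.86 in control cells. The shEp400 arrays were close together below all control arrays, and the gene was 2.16-fold lower (log2 change -1.11, SE 0.20, limma adjusted p = 0.00172). Phgdh, which opens that pathway, had 7.07, 7.30 and 7.38 in shEp400 cells and 7.79, 7.91 and 7.53 in control cells. Shmt2, which passes one-carbon units from serine in mitochondria, had 8.15, 8.07 and 7.76 in shEp400 cells and 8.62, 8.64 and 8.51 in control cells. Both had separate groups and smaller falls (log2 changes -0.49 and -0.59, limma adjusted p = 0.0429 and 0.0182). The Phgdh call was lost in 6 of 16 alternative settings, among them without shEp400 replicate 1 or 2 or control replicate 1 or 2 (limma adjusted p of 0.0928 to 0.145). The Shmt2 call was lost without control replicate 1 (limma adjusted p = 0.0567) or 2 (0.0615) and with cyclic loess normalization (0.0501).

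Asns, whose product makes asparagine and whose gene is a standard readout of Atf4, had log2 signals of 12.85, 12.18 and 12.30 in shEp400 cells and 12.50, 12.54 and 12.02 in control cells. The groups overlapped, and the change was 0.09 (95% interval -0.41 to 0.59, limma adjusted p = 0.781). A dimmer Asns probe fell by 0.77 (limma adjusted p = 0.0477 over all detected probes). Mthfd2, a mitochondrial folate enzyme, and Aldh18a1, which starts proline synthesis, changed by -0.28 and -0.35 and did not pass (limma adjusted p = 0.258 and 0.115).

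By array, the median difference of the stress factors from the control mean was 0.43, 0.38 and 1.45 on shEp400 arrays 1, 2 and 3. The corresponding medians were -0.25, -0.25 and -0.35 for the synthetases, and -0.47, -0.34 and -0.46 for the synthesis enzymes. Array 3 was thus high for stress factors and like the others for synthetases and synthesis enzymes. On the same arrays the feeder fibroblast markers had medians of 1.58, 2.07 and 2.31, and the ES cell markers -0.35, -0.60 and -1.10. The part of these markers in the member changes was not tested.

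**Figure D4:**
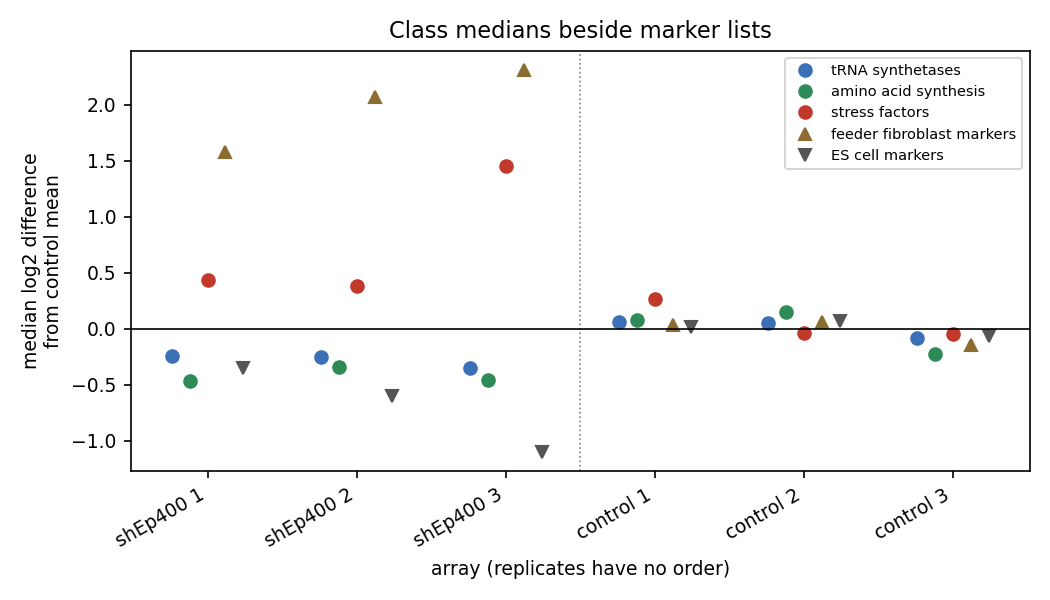
Median log2 difference from the control mean on each array, for 3 groups of members and for the feeder fibroblast and ES cell marker lists. On shEp400 array 3 the stress factors had a median of 1.45, against 0.43 and 0.38 on the other shEp400 arrays.

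Related genes outside the set were counted in the same fit. Their lists were chosen with earlier results of these data known, so the counts describe the lists and were not tested against all genes. Of 15 tested genes around eIF2 signalling and stress, 9 rose, 0 fell and 6 did not pass the test, with a median log2 change of 1.02. Over all genes 20.6% rose and 23.1% fell. The list also holds general stress genes, so the count is not one of eIF2 signalling alone. The kinase genes Eif2ak1 and Eif2ak2 changed by 0.31 and -0.16 and did not pass (limma adjusted p = 0.175 and 0.448). Atf5, a transcription factor translated under eIF2 phosphorylation, was 3.35-fold higher (limma adjusted p = 0.000179), and Nupr1, a stress-induced chromatin protein, was 3.02-fold higher (limma adjusted p = 0.000967). Cebpb, a C/EBP partner of Atf4, rose 2.83-fold, and Ppp1r15a (GADD34), which guides dephosphorylation of eIF2, rose 2.49-fold (limma adjusted p = 0.000188 and 0.00153). The kinase genes Eif2ak3 and Eif2ak4 were below the detection filter, and Gdf15 and Eif2s1 were not analysed here.

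Of 15 tested genes from the other arms of the unfolded protein response, 4 rose and 1 fell, with a median of 0.23. That is 33.3% called, against 43.7% of all genes, where 20.6% rose and 23.1% fell. Dnajb9, an ER co-chaperone, rose 3.16-fold and Creb3, a membrane-bound transcription factor, 3.14-fold (limma adjusted p = 0.000288 and 0.000913), whereas Sdf2l1 fell 1.45-fold (limma adjusted p = 0.0314). The chaperone gene Hspa5 changed by 0.35 and did not pass (limma adjusted p = 0.25), and it was detected on 2 shEp400 arrays and 1 control array. Xbp1 changed by -0.10 (limma adjusted p = 0.705).

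Of 12 tested mitochondrial synthetases, 7 fell and 0 rose, with a median of -0.60, whereas 23.1% of all genes fell. Cars2 fell 2.37-fold and Vars2 2.01-fold (limma adjusted p = 0.000695 and 0.00256). Among 5 further parts of the cytosolic charging machinery, 3 fell: Farsa and Farsb, the subunits of the phenylalanine enzyme, and Eef1e1, a scaffold protein of the multi-synthetase complex. Farsa fell 1.66-fold and Eef1e1 1.59-fold (limma adjusted p = 0.008 and 0.0107), and Farsa was above background on 2 of 3 shEp400 arrays.

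Of 11 other tested genes of amino acid metabolism, 5 fell, against 23.1% of all genes. Another 2 were higher, but Aldh1l2 among them entered the test only through the arrays where it was high. No share of rises is therefore set against all genes. Shmt1, the cytosolic counterpart of Shmt2, fell 3.28-fold and Bcat2, a branched-chain aminotransferase, 2.84-fold (limma adjusted p = 0.000218 and 0.000116). Oat, ornithine aminotransferase, rose 2.23-fold (limma adjusted p = 0.000443). Aldh1l2, a mitochondrial folate enzyme, was detected on 3 shEp400 arrays and 0 control arrays, so it passed the detection filter through the shEp400 arrays alone. Its rise was at least 1.89-fold with the background correction used here, and its p-value is not given for that reason. Of 8 other tested transporters 0 fell, against 23.1% of all genes, and 1 was higher. The 1 was Slc7a8, a carrier of neutral amino acids, which also passed the filter through the 3 shEp400 arrays alone. Its rise was at least 1.69-fold on the same scale. Slc7a5 was not analysed here.

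**Figure D5:**
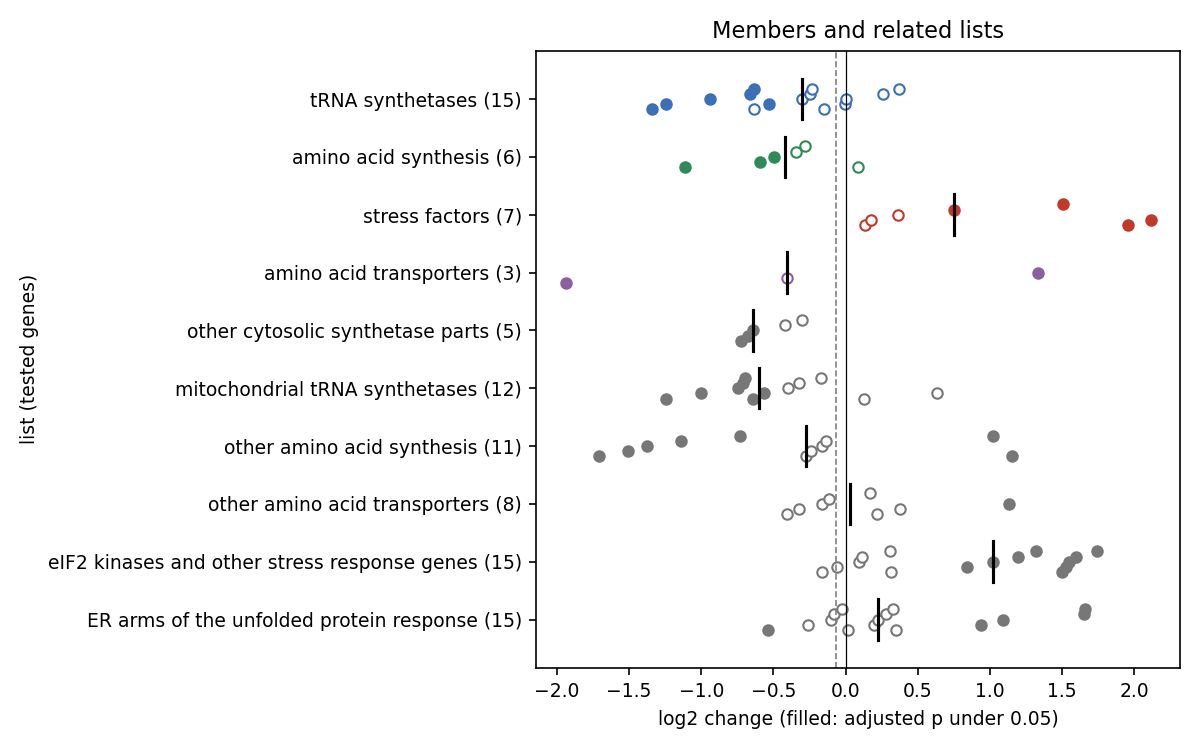
Log2 change of each tested gene (shEp400 minus control), by list, filled where the limma adjusted p was under 0.05, with a bar at each list's median and a dashed line at the median of all genes, -0.06. The called genes around eIF2 signalling and stress and the called stress factors lie to the right, and the called synthetase genes of both compartments to the left.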

How the data were processed

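Expression in 6 samples was read on 1 array each. Per the file headers, the deposited values were linear signal intensities of 45281 probes, beside a deposited detection p-value for each. Their lowest value was 77.6, so no background had been subtracted. The submitters' processing notes name GenomeStudio, with no version or settings. The authors' processed matrix of intensities had a median of 114 on every array and served as an alternative.

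Symbols came from the platform annotation: 34885 probes had 1 symbol, 18 several and 10378 none. A RefSeq table (GRCm38.p6) matched 34807 of them and changed 0 symbols.

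Log2 values were computed with neqc in limma 3.58.1 (R 4.3.3, offset 16, quantile normalization). Probes were kept where 3 or more arrays had a detection p under 0.01 (14238), and the one with the highest mean stood for its gene (9736 genes). Groups were compared with lmFit and eBayes, two-sided, with Benjamini-Hochberg adjustment at 0.05 and 4 residual degrees of freedom. The number of arrays limits the precision. A bound sets the bright group's mean against, per array of the dim group, its own value or, where higher, the lowest one of any detected probe. The fit was run on simulated log2 values with changes planted in a small share of genes, equally in both directions. That simulation did not cover background correction, or data in which as many genes change as here.

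The members and lists were chosen with earlier results of these data known. Named genes are all members, Ep400, up to 2 largest rises and falls of each related list, and 9 stress and transport genes whatever their value. Farsb, Eif2s1, Eif2ak1, Eif2ak2 and the marker genes below the filter were added afterwards.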

Additional observations from a re-analysis of the deposited data

How the results depend on the processing

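Each result was recomputed under 16 alternatives: 5 of background and scaling, 2 filters, 2 ways of using probes, 1 eBayes setting and 6 fits without 1 array. Of 489 member values under these alternatives, 454 kept their side of the threshold, 27 lost a call and 8 gained one, and 0 changed sign while called. Of the 15 called members, 9 kept their call in every alternative that tested them. Between 3000 and 4526 genes were called, against 4251.

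With cyclic loess, 1 synthetase rose (Nars) and 1 synthesis enzyme fell, and with 75th percentile scaling 2 transporters fell. Where detection on all 6 arrays was required, 0 transporters rose, because Slc7a11 was not tested. Leaving out 1 array in turn, between 3 and 6 synthetases and between 1 and 3 synthesis enzymes fell, the fewest synthetases without control replicate 1 and the fewest synthesis enzymes without control replicate 1 or 2.

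Scaling moved the median of all genes to 0.05 with cyclic loess and to -0.17 with 75th percentile scaling, against -0.06. The share of called genes that rose was 59.4% and 39.1% in these settings, against 47.2%. The synthetase median was -0.15 and -0.61, and the stress factor median 0.89 and 0.54. Changes of dim genes (Atf3, Vldlr, Slc7a11 and Cars) were smaller with no background correction. No paired analysis was possible because the labels give no replicate numbers shared between groups.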
